A study of Mus musculus with 60 samples.

Results

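Colon epithelial cells with an intermediate GFP signal were compared with cells without GFP from the same parts of the colon, by RNA-seq of 16 of the 60 libraries in the series. The mice were 8 weeks old and carried the Lgr5-2A-eGFP allele, in which a self-cleaving peptide lets eGFP be made from the transcript of Lgr5 itself. All 4 groups carried this allele, the GFP-negative cells included, and the labels name no treatment. The groups were proximal colon GFP-intermediate, proximal colon GFP-negative, distal colon GFP-intermediate and distal colon GFP-negative, with 4 libraries in each. Libraries were chosen by their labelled part and fraction alone, and the contrast was the mean of the GFP-intermediate groups minus the mean of the GFP-negative groups over both parts, 8 libraries against 8. Proximal and distal libraries of the same number and fraction resembled each other on average, so the 8 are not fully independent. Crypts were released by chelation, TrypLE (a trypsin substitute) gave single cells, and at least 30000 cells of each fraction were sorted by flow cytometry. The gates, the sex of the mice and the number of animals behind a library are not given in the sources used here. The p-values therefore measure the spread between libraries within groups, which may be technical in part. This spread was estimated over all 60 libraries of the series, not over the 16 alone.

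In the colon, Lgr5-expressing stem cells lie at the base of the crypt, where Wnt and R-spondin signals keep them dividing. Their progeny divide further while moving up and then become absorptive colonocytes or one of the secretory types: mucus-producing goblet cells, hormone-producing enteroendocrine cells and chemosensory tuft cells. Stable GFP protein can persist in daughter cells after the transcript has declined, so an intermediate signal is commonly read as early progeny, and a cell without GFP can be of any other type that passed the gate.

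The 16 libraries held between 69128968 and 91870671 counts each (median 79685975), with 20135 to 23283 genes counted at least once. Levels are CPM, counts scaled to a common library total with TMM factors, and they are compared between fractions, not between genes. Differences are log2, GFP-intermediate minus GFP-negative, given ± SE, and a gene was called at an adjusted p below 0.05 in edgeR's quasi-likelihood test with Benjamini-Hochberg adjustment over 23360 genes, which is the source of each adjusted p below. Epithelial genes were abundant in both fractions: 22 of them summed to 14800 to 16700 CPM in GFP-intermediate and 14600 to 20800 CPM in GFP-negative libraries. Of these, 0 were called higher and 4 lower (18.2%, against 12.2% of all genes), and the median difference was -0.02. A difference near 0 does not itself show which cells the fractions held. Epcam, an adhesion molecule of epithelial cells, ran from 1490 to 1700 CPM in the GFP-intermediate and from 1210 to 1890 CPM in the GFP-negative libraries. Of the GFP-negative libraries, 3 stood apart: proximal replicate 3, in which leukocyte and enteroendocrine genes were high, and replicate 4 of each part, whose mean correlations with their own groups were 0.907 and 0.922. Transcripts of the mitochondrial genome summed to 42700, 41800 and 36600 CPM in proximal replicates 3 and 4 and distal replicate 4, against 19700 to 35600 CPM in the other 5 GFP-negative and 18600 to 38300 CPM in the GFP-intermediate libraries. The part of this in the results was not tested. Because these are bulk samples, fewer cells of a type and less RNA per cell cannot be told apart.

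Across all genes, 2522 (10.8%) were called higher in GFP-intermediate cells and 2860 (12.2%) lower. These shares are the background for each list count over both parts given below. The median called difference was 0.57 for the higher genes and -2.38 for the lower ones. A difference of at least 2-fold was reached by 584 of the higher (2.50% of genes tested) and 1810 of the lower genes (7.75%). In the proximal colon alone 503 were called at least 2-fold higher (2.15%) and 1455 at least 2-fold lower (6.23%). In the distal colon, where 2289 genes (9.80%) were called in all, these were 274 (1.17%) and 1076 (4.61%). All 8 GFP-intermediate libraries lay above all 8 GFP-negative libraries for 476 genes (2.04%) and below them for 733 (3.14%). A mean under 1 CPM in both fractions was found for 201 of the 246 genes called at least 4-fold higher and for 801 of the 1513 called at least 4-fold lower.

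The genes with the largest increases at 10 CPM or more and with no overlap between the fractions were Lgr5, Scn2b, Smoc2, Ascl2, Angpt2, Ifitm3, Rgcc, Cps1, Fzd2, Clca3a2, Bex4, Clca3b, Tead2, Acot1 and Mex3a. Clca3a2 and Clca3b, like other close copies, can share reads and are uncertain singly. Lgr5, the R-spondin receptor from whose allele GFP is expressed, stood at 128, 158, 101 and 107 CPM in the 4 proximal GFP-intermediate libraries and at 17.4, 12.2, 9.32 and 9.89 CPM in the proximal GFP-negative ones. In the distal colon its levels were 80.8, 78.5, 67.2 and 69.7 CPM against 6.38, 6.65, 4.37 and 8.46 CPM. The fractions did not overlap in either part, which checks the sort labels, and Lgr5 was low but counted in each GFP-negative library. Its difference was 3.43 ± 0.21 (adjusted p = 4.4e-18). Smoc2, a matricellular protein gene used as a crypt base marker, ran from 125 to 182 CPM in GFP-intermediate libraries and from 11.8 to 33.9 CPM in GFP-negative ones, a difference of 2.72 ± 0.10 (adjusted p = 4.14e-27). Ascl2, a transcription factor of intestinal stem cells and a Wnt target, had a lowest, median and highest level of 25.1, 30.9 and 74.1 CPM against 2.54, 5.36 and 10.4 CPM. It differed by 2.69 ± 0.24, and replicates 1 and 2 held the 2 highest values within each of the 4 groups. Scn2b, a sodium channel subunit gene, rose by 3.40 ± 0.21 and was lower in the distal than in the proximal GFP-intermediate libraries, without overlap.

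**Figure D1:**
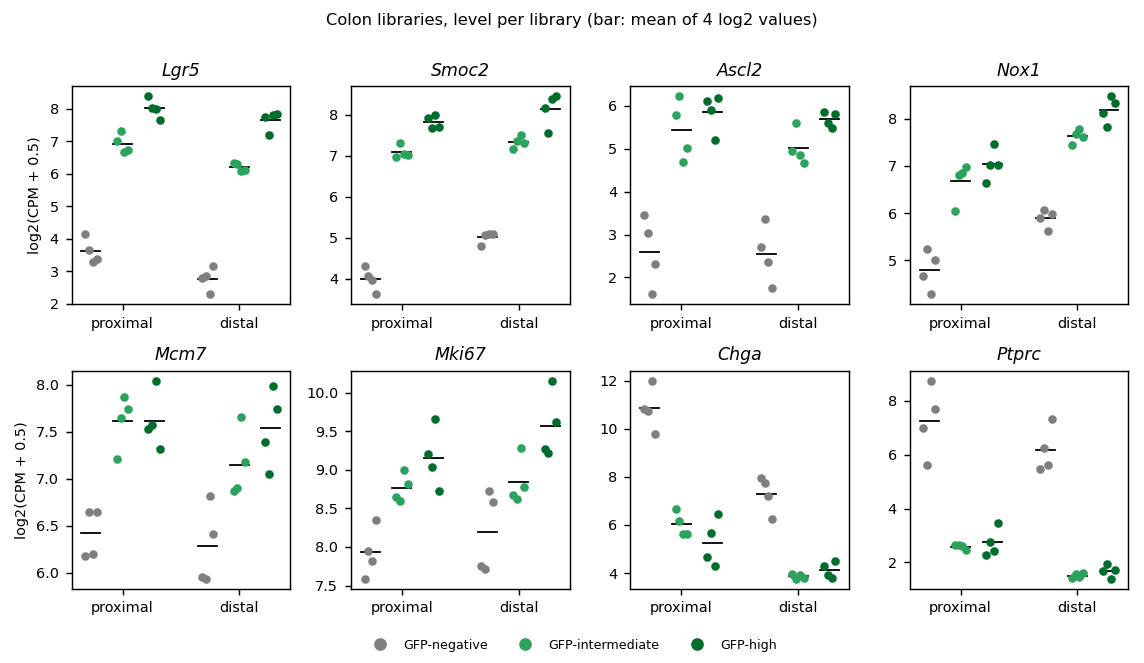
Level of 8 genes in each colon library, as log2(CPM + 0.5), by part and GFP fraction; each point is 1 library and each bar the mean of the 4 log2 values. Lgr5, Smoc2 and Ascl2 separate the GFP-intermediate from the GFP-negative libraries without overlap in both parts, as Chga and Ptprc do in the opposite direction, while Mki67 overlaps in the distal part.

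Of 32 crypt base stem cell genes tested, 21 were called higher (65.6%, against 10.8% of all genes) and 2 lower (6.25%, against 12.2%), with a median difference of 0.78. For 13 all 8 GFP-intermediate libraries lay above all 8 GFP-negative ones. In the proximal colon 24 were called higher, with a median of 1.08, and in the distal colon 17, with a median of 0.54. Of all genes 7.51% and 3.85% were called higher there. The difference between parts was called for 0 of the 32. Over all genes it was called for 0.274%, so this 0 does not show that the parts agree. Beyond the 4 leading genes, Prelp rose by 2.17 ± 0.15, Axin2, a negative regulator that Wnt signalling itself induces, by 1.65 ± 0.17, Cd44 by 1.57 ± 0.15, Cdca7 by 1.34 ± 0.09 and the potassium channel gene Kcnq1 by 1.23 ± 0.11. The increases were smaller for Lrig1, an ErbB inhibitor of stem and early progenitor cells (0.89 ± 0.10), and for the crypt transcription factor Sox9 (0.65 ± 0.15). Olfm4, a stem cell marker of the small intestine, had a median of 0.158 CPM in GFP-intermediate colon cells and was not called (adjusted p = 0.221). The 2 members called lower were at very low levels: Slc14a1, a urea transporter gene, had a median of 0 CPM against 2.15 CPM, and Fstl1 had 0.128 CPM against 0.174 CPM. The lower count was 1 without any 1 of proximal GFP-intermediate replicates 1, 2 and 4, proximal GFP-negative replicate 3, distal GFP-intermediate replicates 1, 2 and 4 and distal GFP-negative replicates 2 and 3.

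Wnt signals act through Frizzled receptors and beta-catenin, and many of the genes they induce feed back on the pathway. Of 24 Wnt feedback and target genes, 14 were called higher (58.3%, against 10.8% of all genes) and 4 lower (16.7%, against 12.2%). Their median was 0.87. Rnf43, a ubiquitin ligase that removes Frizzled receptors from the surface, rose by 1.15 ± 0.14, Sox4 by 1.21 ± 0.15 and Ephb3, a receptor that positions cells along the crypt, by 1.42 ± 0.14. Apcdd1 and Notum, both Wnt inhibitors, were called higher but had GFP-intermediate medians of 0.979 and 0.802 CPM. The 4 called lower were Lef1, Wif1, Dkk3 and Tcf7. Lef1 and Tcf7 encode DNA-binding partners of beta-catenin that T cells also express, and Lef1 had a GFP-intermediate median of 0.0237 CPM and a GFP-negative one of 1.86 CPM. In the same libraries T cell genes were lower as well (values given with the leukocyte lists), and their part in the Lef1 and Tcf7 differences was not tested.

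Among 18 Wnt receptors and co-receptors, 5 were called higher (27.8%, against 10.8% of all genes) and 1 lower (5.56%, against 12.2%). Frizzled receptor Fzd7 ran from 55.2 to 73.4 CPM against 16.1 to 36.9 CPM (1.32 ± 0.12) and Fzd2 from 5.73 to 18.1 CPM against 0.429 to 5.22 CPM (1.94 ± 0.28). Ptk7, a Wnt co-receptor without kinase activity, rose by 0.74 ± 0.12. Fzd5 went the other way, with 81.9, 107 and 145 CPM (lowest, median, highest) against 90.8, 122 and 225 CPM, a difference of -0.37 ± 0.10 (adjusted p = 0.00476). Lgr4 and Lrp6, the widely expressed R-spondin receptor and Wnt co-receptor, differed by -0.04 and -0.07 and were not called. In the Eph and ephrin list 8 of 15 were called higher (53.3%, against 10.8% of all genes) and 1 lower (6.67%, against 12.2%). The receptors Ephb3 and Epha7 and the ligand gene Efna4 (1.23 ± 0.24) were among the higher ones. The higher count was 5 without proximal GFP-negative replicate 3. The lower one was Efnb2, a ligand of EphB receptors, at 42.1 to 70.2 CPM against 66.7 to 122 CPM (-0.71 ± 0.15).

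Proximal promoters were searched for the core TCF/LEF motif CTTTGAT on both strands within 250 bases before the RefSeq gene start, for the 14208 tested genes with an entry. It was found in 3.1% of them, in 3 of 23 crypt base stem cell genes (13.0%) and in 1 of 14 Wnt feedback and target genes (7.14%). Windows from 2 called stem cell genes are shown because both genes rose, Sp5 by 1.64 ± 0.38 and Tnfrsf19 by 1.18 ± 0.18. They are on build GRCm38.p6, at chr2:70474793-70474852 (plus strand) and chr14:61038156-61038215 (minus strand), written 5′ to 3′ along the gene's strand with the motif or its reverse complement in capitals.
Sp5: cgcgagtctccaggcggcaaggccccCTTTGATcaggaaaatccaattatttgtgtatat
Tnfrsf19: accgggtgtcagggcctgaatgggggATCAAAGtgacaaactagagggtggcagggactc
The match begins 104 bases before the start of Sp5 and 202 before that of Tnfrsf19. A match is a description of the letters in the window and says nothing of binding.

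Cell division genes rose nearly throughout. Of 41 DNA replication and S phase genes, 39 were called higher and 0 lower, with a median difference of 0.93, and of 38 mitosis and spindle genes 37 were called higher and 0 lower, with a median of 0.83. Mcm7, a subunit of the replicative helicase, ran from 116 to 233 CPM against 60.8 to 112 CPM, with no overlap, and differed by 1.03 ± 0.14 (adjusted p = 5.42e-08). The licensing factor gene Cdt1 rose by 1.03 ± 0.13, the histone chaperone subunit gene Chaf1b by 1.03 ± 0.13 and the DNA ligase gene Lig1 by 1.04 ± 0.14. Aurkb, a kinase of the chromosomal passenger complex, rose by 1.19 ± 0.17, Ube2c, a ubiquitin-conjugating enzyme of the anaphase-promoting complex, by 1.02 ± 0.15, and Cdk1, the kinase that drives entry into mitosis, by 1.02 ± 0.16. Mki67 had 385, 423 and 620 CPM (lowest, median, highest) in GFP-intermediate and 192, 237 and 422 CPM in GFP-negative libraries, a difference of 0.71 ± 0.19 (adjusted p = 0.00433). The fractions overlapped for Mki67, in the distal colon. No overlap between the 8 and 8 libraries was seen for 6 of the S phase and 7 of the mitosis genes. In the proximal colon 38 S phase and 37 mitosis genes were called higher (7.51% of all genes were). In the distal colon these were 26 and 21 (3.85% of all genes). The difference between parts was called for 0 genes of either list, against 0.274% of all genes, so a count of 0 does not show that the parts agree.

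Sequence windows from the promoters of cell cycle genes are shown because these genes moved together. An E2F motif, TTTCCCGC or TTTGGCGC on either strand, was found within 250 bases before the start of 6 of 33 S phase genes with a RefSeq entry (18.2%) and of 2.38% of all 14208. The CHR motif TTTGAA, searched on both strands, a short element in promoters of mitotic genes, was found in 10 of 33 mitosis genes (30.3%) and in 14.3% of all. Capitals mark the motif or its reverse complement, and the 60-base windows are read along the gene's strand on GRCm38.p6, with the E2F motif in the first 3 and the CHR motif in the rest.
Mcm6: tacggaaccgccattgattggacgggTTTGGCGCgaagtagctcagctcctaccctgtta
Mcm5: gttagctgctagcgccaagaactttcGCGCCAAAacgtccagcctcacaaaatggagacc
Cdc6: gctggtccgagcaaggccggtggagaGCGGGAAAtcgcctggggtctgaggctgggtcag
Ube2c: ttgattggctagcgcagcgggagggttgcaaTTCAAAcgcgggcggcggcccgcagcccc
Prc1: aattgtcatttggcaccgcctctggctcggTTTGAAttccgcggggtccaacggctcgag
Cdk1: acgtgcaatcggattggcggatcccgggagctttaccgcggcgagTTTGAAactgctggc
They lie at chr1:128359719-128359778 (Mcm6, minus), chr8:75109334-75109393 (Mcm5, plus), chr11:98907987-98908046 (Cdc6, plus), chr2:164769869-164769928 (Ube2c, plus), chr7:80294416-80294475 (Prc1, plus) and chr10:69352913-69352972 (Cdk1, minus). The E2F match shown began 47 bases before the start of Mcm6, 149 before Mcm5 and 138 before Cdc6, and the CHR match shown 29 before Ube2c, 30 before Prc1 and 15 before Cdk1. The differences of these 6 genes ran from 0.82 ± 0.17 for Prc1, a spindle midzone protein, to 1.05 ± 0.17 for Mcm5, a helicase subunit.

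Genes of ribosome production and nucleotide supply rose too. Of 35 ribosome biogenesis genes 26 were called higher and 0 lower (median 0.42), and 11 had no overlap. Nucleophosmin, encoded by Npm1, ran from 507 to 632 CPM against 247 to 355 CPM (0.85 ± 0.09), nucleolin, encoded by Ncl, rose by 0.73 ± 0.09 and the pseudouridine synthase gene Dkc1 by 0.69 ± 0.08. Of 29 genes of one-carbon, nucleotide and polyamine synthesis 19 were called higher and 0 lower (median 0.53). Phgdh, the first enzyme of serine synthesis, ran from 38.6 to 81.9 CPM against 11.2 to 29.3 CPM (1.54 ± 0.22). Impdh2, of guanine nucleotide synthesis, rose by 0.82 ± 0.10 and mitochondrial Shmt2 by 0.90 ± 0.11. Of 14 DNA methylation genes 7 were called higher and 0 lower, among them the maintenance pair Dnmt1 (0.79 ± 0.13) and Uhrf1 (1.06 ± 0.17) and the demethylase gene Tet1 (0.91 ± 0.21). That count was 4 without any 1 of proximal GFP-intermediate replicate 4, distal GFP-intermediate replicate 3 and distal GFP-negative replicate 1.

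**Figure D2:**
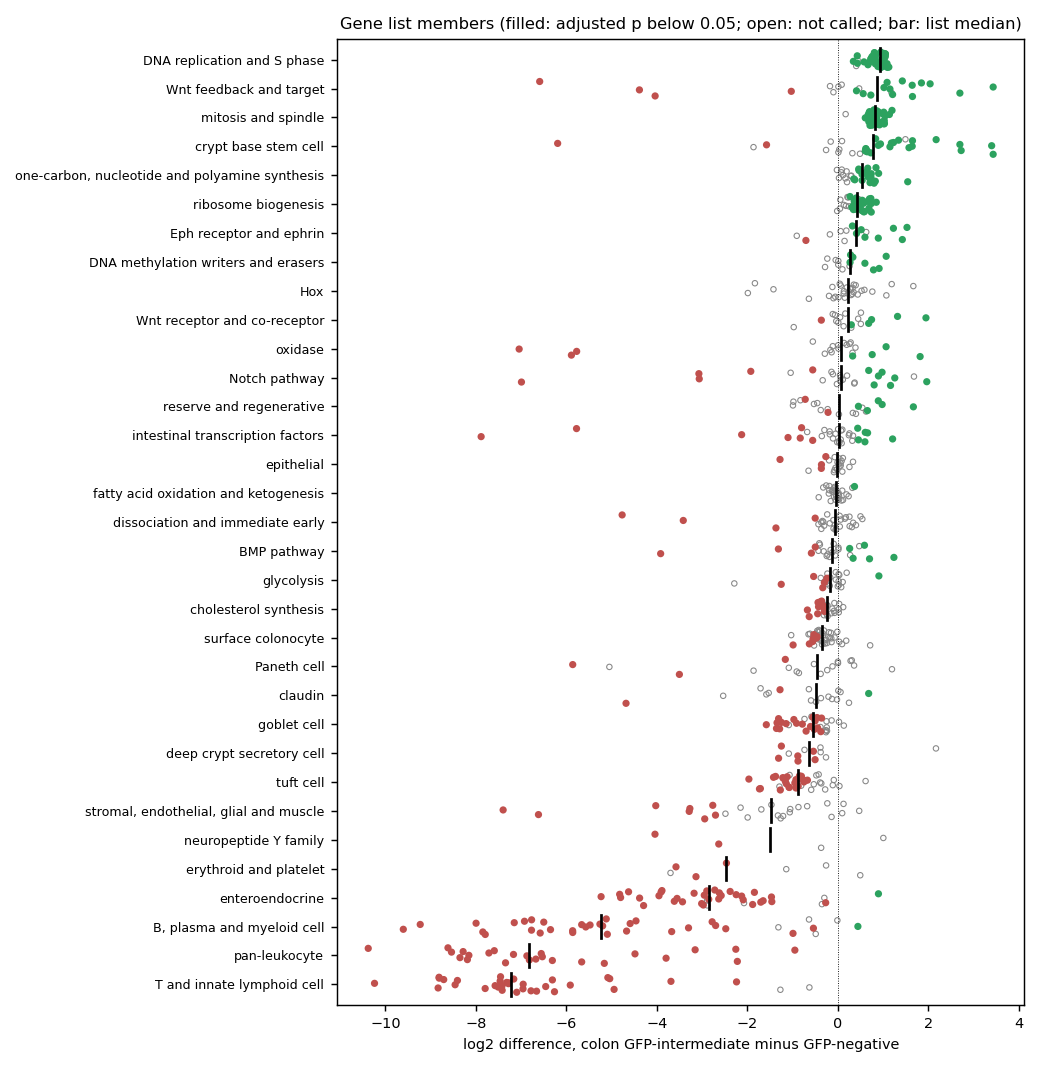
Log2 difference of each tested member of 33 gene lists, ordered by list median (black bar); filled points passed the test and open points did not. The cell division lists form narrow clusters to the right of 0, and the enteroendocrine and leukocyte lists spread far to the left, with medians from -7.22 to -2.86.

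Of 40 surface colonocyte genes 0 were called higher and 7 lower (17.5%, against 12.2% of all genes), with a median of -0.36. Those called included the epithelial sodium channel subunit genes Scnn1a (-0.55 ± 0.15) and Scnn1b, the differentiation factor Klf4 (-0.56 ± 0.18) and the sulfate transporter gene Slc26a2 (-0.47 ± 0.15). Krt20, a keratin of differentiated cells, had 72.2, 162 and 394 CPM (lowest, median, highest) against 107, 245 and 780 CPM and was not called (adjusted p = 0.075). Carbonic anhydrase gene Car1 and chloride exchanger gene Slc26a3 differed by -0.53 ± 0.99 and -0.44 ± 0.23 and were not called either. These 3 non-calls depend on the fit. With only the compared groups Krt20 (-0.65, adjusted p = 0.0114), Car1 (-0.53, adjusted p = 0.0333) and Slc26a3 (-0.44, adjusted p = 0.026) were called lower. Krt20 was also called with DESeq2's size factors (adjusted p = 0.0499) and by DESeq2's Wald test (adjusted p = 0.0433). The call of Slc26a2 was lost without any 1 of proximal GFP-intermediate replicate 2, distal GFP-intermediate replicate 3 and distal GFP-negative replicate 1 (-0.42 to -0.39), and that of Krt20 was gained without proximal GFP-negative replicate 4 (-0.74). The count of 7 fell to 3 without proximal GFP-intermediate replicate 2 and to 4 without distal GFP-intermediate replicate 2, and was 17 in a fit of the compared groups alone.

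Of 31 goblet cell genes 19 were called lower and 0 higher (median -0.56). Those called included Zg16, a lectin of the mucus layer (-1.58 ± 0.27), Fcgbp, a mucin-binding protein (-1.31 ± 0.24), Tff3, a trefoil peptide (-1.25 ± 0.21), and Rep15, a regulator of vesicle recycling (-1.29 ± 0.19). Zg16 stood at 321, 572 and 1050 CPM (lowest, median, highest) against 560, 1410 and 3750 CPM, and the fractions overlapped. Muc2, the gel-forming mucin, had 9240, 16400 and 27900 CPM against 11200, 20900 and 29200 CPM and was not called (-0.27 ± 0.21, adjusted p = 0.42). Atoh1, the factor that commits cells to the secretory lineage, fell by 0.56 on the log2 scale (adjusted p = 0.00796). Deep crypt secretory cells are colonic cells that lie between stem cells, and 6 of their 12 listed genes were called lower and 0 higher. Reg4, their marker gene, differed by -0.88 ± 0.26 and Kit by -0.54 ± 0.15.

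Enteroendocrine genes fell. Of 39 tested, 33 were called lower and 1 higher, the median was -2.86, and 21 had no overlap. With the 2 members that had no count in any GFP-intermediate library set at the bound that 3 counts per library allow, the median was -2.64. Chga, encoding the granule protein chromogranin A, stood at 99.8, 72.1, 49.0 and 49.3 CPM in the proximal GFP-intermediate and at 1830, 1710, 4110 and 892 CPM in the proximal GFP-negative libraries. Its distal levels were 15.3, 13.1, 14.6 and 13.4 CPM against 248, 217, 149 and 76.0 CPM. Within each part the fractions did not overlap, and GFP-negative levels were higher in the proximal than in the distal colon. The difference was -4.30 ± 0.35 (adjusted p = 1.08e-13). Tph1, the rate-limiting enzyme of serotonin synthesis in the gut, fell by 5.24 on the log2 scale (SE 0.34), the carboxypeptidase gene Cpe by 3.89 and Chgb by 3.96. Hormone genes of several endocrine subtypes were lower too: somatostatin (Sst, -3.62 ± 0.40), proglucagon (Gcg, -2.98 ± 0.36), peptide YY (Pyy, -2.63 ± 0.38) and insulin-like 5 (Insl5, -2.96 ± 0.58).

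The transcription factors of this lineage did not all move one way. Neurog3, which starts endocrine commitment and is expressed briefly in progenitors, was the 1 listed gene called higher: 3.26, 4.32 and 5.59 CPM (lowest, median, highest) against 1.54, 2.31 and 3.11 CPM, with no overlap (0.89 ± 0.33, adjusted p = 0.0454). Neurod1, which acts after it, had 0.851, 1.86 and 2.73 CPM against 4.52, 13.7 and 50.6 CPM and fell by 3.01 on the log2 scale. Insm1 (-1.89 ± 0.28), Pax4 (-2.09 ± 0.40) and Isl1 (-2.13 ± 0.31) were likewise lower. The Neurog3 call was lost in 11 of the 16 fits that left out 1 library each, with differences between 0.82 and 0.93 in those 11. The call was also lost with DESeq2's size factors (adjusted p = 0.059) and with no filter (adjusted p = 0.0544). Without both GFP-negative libraries numbered 4 the adjusted p was 0.107. Without the 3 libraries that stand apart the difference was 0.73 (adjusted p = 0.222). The call held without any 1 of proximal GFP-intermediate replicates 1 and 3, proximal GFP-negative replicate 1, distal GFP-intermediate replicate 1 and distal GFP-negative replicate 1.

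Tuft cells are chemosensory cells that signal through a taste-like cascade. Averaged over both parts 24 of 38 were called lower and 0 higher (median -0.89). In the distal colon 30 were called lower (5.95% of all genes were) with a median of -2.17, whereas in the proximal colon 2 were called lower (7.52% of all genes) and 1 higher, with a median of 0.30 (7.51% of all genes were called higher there). The difference between the parts was itself called for 17 of the 38 genes, all in the direction of a lower distal value, against 0.154% of all genes. Dclk1, a kinase used as the tuft cell marker, stood at 18.1, 14.9, 23.4 and 20.8 CPM in distal GFP-intermediate and at 109, 83.8, 132 and 138 CPM in distal GFP-negative libraries. In the proximal colon it stood at 60.7, 75.7, 76.3 and 78.1 CPM against 40.1, 75.7, 63.2 and 105 CPM, and the fractions overlapped. The differences were -2.58 ± 0.30 distally and 0.03 ± 0.28 proximally (adjusted p of the difference between parts = 0.000207).

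Trpm5, the cation channel of taste-like signalling, had 15.2, 10.1, 18.3 and 16.7 CPM against 75.3, 60.3, 82.3 and 54.8 CPM in the distal colon. Proximally it had 51.2, 61.0, 54.7 and 52.9 CPM against 33.0, 41.8, 48.5 and 40.7 CPM, so that the GFP-intermediate libraries were the higher ones there, without passing the test (0.42 ± 0.27, adjusted p = 0.33). Among the genes with the most negative difference between parts by the naming rule were Sh2d7, Matk, Alox5, Spib and Dclk1, each a member of the tuft cell list. Their distal differences ran from -2.58 to -2.23, and their proximal differences from 0.03 to 0.72. The tuft gene called higher in the proximal colon was Siglecf (1.16, adjusted p = 0.0257), and the 2 called lower there were Inpp5d and Fyb, both of which leukocytes also express. The Siglecf call was lost without any 1 of proximal GFP-intermediate replicates 2 and 4 and proximal GFP-negative replicates 1 and 4. The 2 lower proximal calls became 0 without proximal GFP-negative replicate 3 and 1 without proximal GFP-intermediate replicate 1, 2 or 3. The average over both parts was called for Matk (-0.81 ± 0.29), but not in 10 of the 16 fits without 1 library. These left out any 1 of the 4 proximal GFP-intermediate libraries, proximal GFP-negative replicate 3, distal GFP-intermediate replicates 1, 2 and 4 and distal GFP-negative replicates 2 and 3 (-0.80 to -0.65).

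**Figure D3:**
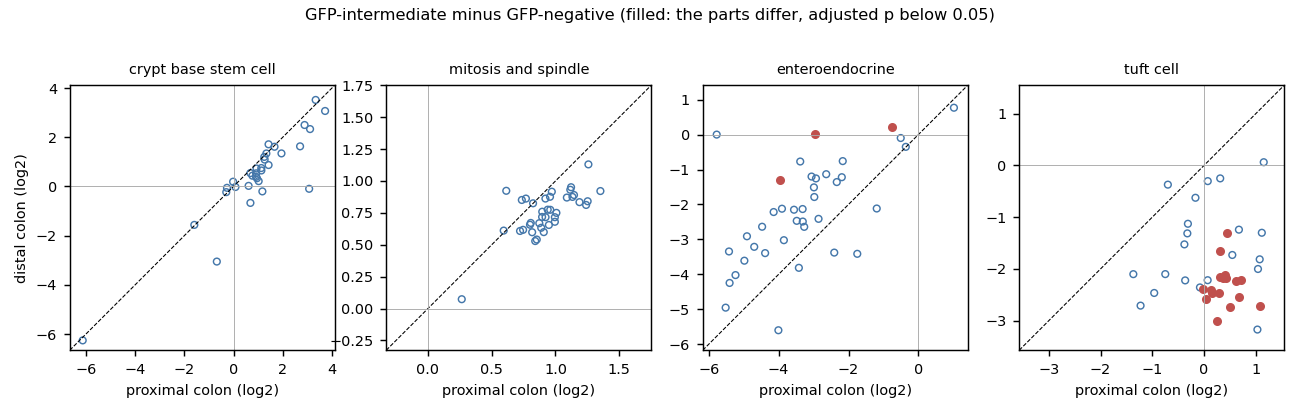
Log2 difference in the distal colon against that in the proximal colon for members of 4 lists; each point is a gene, the dashed line marks equality and filled points are genes whose difference between parts passed the test. Of the stem cell and mitosis genes 0 are filled, and of all genes 0.274% passed this test. Stem cell genes have a median of 1.08 proximally and 0.54 distally, and mitosis genes of 0.92 and 0.77. In the tuft cell list 17 genes, Dclk1 among them, are filled and lie near 0 on the proximal axis and below 0 on the distal axis.

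Over all genes, the difference between parts was called for 64 of 23360 genes (0.274%), 28 with a higher distal (0.120%) and 36 with a higher proximal difference. The count of 28 was 11 without proximal GFP-negative replicate 3, 15 without proximal GFP-intermediate replicate 3 and 17 without proximal GFP-intermediate replicate 1 or 4 or distal GFP-negative replicate 2. It was 18 without distal GFP-negative replicate 3 and 50 without proximal GFP-negative replicate 2. Of the genes called higher in the distal colon (900, or 3.85%) 73.6% were called higher in the proximal colon as well, and these made up 37.7% of the proximal ones. For lower genes the shares were 66.5% and 52.6%. The distal higher count was 511 without distal GFP-intermediate replicate 3 and 594 without distal GFP-negative replicate 4. Calls in opposite directions were made for 3 genes that were higher proximally and 2 that were lower proximally.

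Npy1r, a neuropeptide Y receptor gene, went in opposite directions in the 2 parts. In the proximal colon it stood at 1.52, 1.73, 3.90 and 4.10 CPM in GFP-intermediate and at 7.89, 7.58, 20.0 and 9.17 CPM in GFP-negative libraries, without overlap and with replicate 3 highest among the GFP-negative ones. In the distal colon it stood at 41.2, 34.5, 45.3 and 43.0 CPM against 15.7, 17.8, 15.9 and 20.0 CPM, again without overlap but in the other direction. The differences were -1.99 ± 0.52 (adjusted p = 0.00485) and 1.24 ± 0.50 (adjusted p = 0.114), the difference between parts was 3.23 ± 0.72 (adjusted p = 0.022), and the average of both parts was -0.37 ± 0.35 (adjusted p = 0.526). The call of the difference between parts was lost without proximal GFP-negative replicate 3 (2.80, adjusted p = 0.103), and also without any 1 of proximal GFP-intermediate replicates 1 and 2 and distal GFP-negative replicates 1, 2 and 3 (3.02 to 3.24). Without the 3 libraries that stand apart the difference between parts was 2.78 (adjusted p = 0.283) and the proximal one -1.46 (adjusted p = 0.117). By DESeq2's Wald test the difference between parts was 3.28 and was not called (adjusted p = 0.111). The distal difference was called with only the compared groups (1.25, adjusted p = 0.000129) and by edgeR's newer quasi-likelihood method (1.24, adjusted p = 0.000828).

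Trf, which encodes the iron carrier transferrin, had its higher levels in the distal colon. Its distal levels were 96.0, 157, 192 and 131 CPM in GFP-intermediate and 22.4, 43.9, 35.9 and 37.1 CPM in GFP-negative libraries, and its proximal levels 0.824, 1.46, 2.43 and 1.55 CPM against 2.18, 0.778, 8.86 and 4.89 CPM. The distal difference was 2.05 ± 0.45 (adjusted p = 0.00104) and the proximal one -1.42 ± 0.46 (adjusted p = 0.0279). The proximal fractions overlapped. The proximal call was lost without any 1 of proximal GFP-intermediate replicates 1, 2 and 4 and proximal GFP-negative replicate 4 (-1.41 to -1.21), and without proximal GFP-negative replicate 3 the difference was -0.74 (adjusted p = 0.363). Without the 3 libraries that stand apart it was 0.084 (adjusted p = 0.979) and the difference between parts 2.00 (adjusted p = 0.653), while the distal difference was 2.08 (adjusted p = 0.00103).

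For a further set of genes the proximal difference was the more negative one. The peptide transporter gene Slc15a1 had 0.964, 0.592, 0.715 and 0.642 CPM against 11.6, 10.6, 23.9 and 15.7 CPM proximally, and 11.8, 6.56, 7.78 and 9.13 CPM against 14.9, 6.25, 6.57 and 13.1 CPM distally (difference between parts 4.20 ± 0.68, adjusted p = 0.000303). Ambp, encoding the precursor of alpha-1-microglobulin and bikunin, had 3.36, 3.31, 2.67 and 2.35 CPM against 22.7, 28.8, 54.3 and 9.58 CPM proximally and under 2 CPM in each distal library. Man1c1, a mannosidase gene of the Golgi, had 1.60, 1.55, 0.480 and 0.985 CPM against 23.2, 16.9, 46.7 and 14.4 CPM proximally. Tac1, the substance P precursor of serotonin-producing endocrine cells, and Slc18a1, their vesicular monoamine transporter, belong here as well, with differences between parts of 2.97 ± 0.46 and 2.66 ± 0.43. Slfn2, a gene that leukocytes express, was at most 0.913 CPM in the GFP-intermediate and ran from 3.74 to 24.2 CPM in the GFP-negative libraries (difference between parts 3.48, adjusted p = 0.0093). In Slc15a1, Ambp, Man1c1, Tac1, Slc18a1 and Npy1r the highest proximal GFP-negative library was replicate 3, the one with the highest summed enteroendocrine level, 12500 CPM against 4350 to 5780 CPM in the other 3. That library was also the highest proximal GFP-negative one for the summed T and innate lymphoid (1910 CPM), pan-leukocyte (1840 CPM) and stromal (165 CPM) genes. Slc18a1 is itself a member of the enteroendocrine list. The part of endocrine or other cells in these differences was not tested. Without proximal GFP-negative replicate 3 the call was lost for Slfn2 (2.60, adjusted p = 0.0951), and without the 3 libraries that stand apart for Man1c1 (4.23, adjusted p = 0.106). The reverse held for Cps1, which encodes a urea cycle enzyme. It had 122, 198, 142 and 133 CPM against 31.2, 32.0, 12.8 and 16.2 CPM proximally and 46.0, 46.0, 63.8 and 53.7 CPM against 18.6, 22.7, 22.3 and 25.2 CPM distally, without overlap in either part. Its difference between parts was -1.45 ± 0.31 (adjusted p = 0.0111), a call that was lost without proximal GFP-intermediate replicate 2 (-1.29) or proximal GFP-negative replicate 3 (-1.25). It was also lost without the 3 libraries that stand apart (-0.93, adjusted p = 0.647), without both GFP-negative libraries numbered 4 (adjusted p = 0.0802) and with only the compared groups (adjusted p = 0.106).

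**Figure D4:**
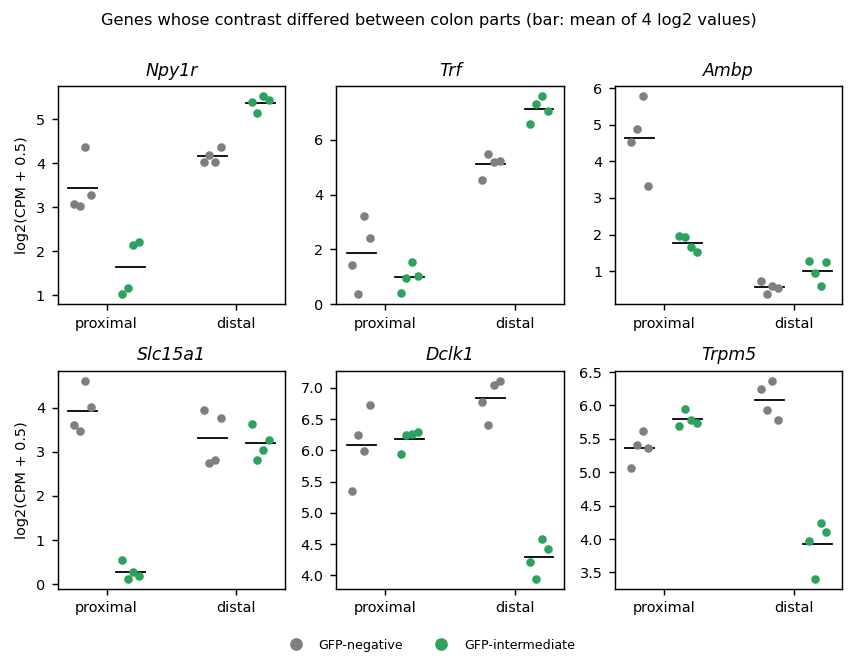
Level of 6 genes in each GFP-negative and GFP-intermediate library, as log2(CPM + 0.5), with a bar at the mean of the 4 log2 values. Npy1r and Trf are lower in GFP-intermediate than in GFP-negative cells on average in the proximal and higher in the distal colon, Ambp and Slc15a1 are lower in the proximal colon, and Dclk1 and Trpm5 are lower in the distal colon.

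Genes of leukocytes, which can lie within the epithelium, were among the largest decreases. All 25 pan-leukocyte genes were called lower (median -6.82), 24 without overlap. Of 34 T and innate lymphoid cell genes 32 were called lower and 0 higher (median -7.22), and of 36 B, plasma and myeloid cell genes 31 were called lower and 1 higher (median -5.23). With members at 0 in each GFP-intermediate library set at their bound, the last 2 medians were -7.13 and -5.11. The genes with the largest decreases by the naming rule included Sh2d2a, Zap70, Cd53, Spn, Laptm5 and Cd3g, most of them parts of T cell receptor signalling or leukocyte membranes. Ptprc, which encodes CD45, stood at 2.18, 3.73 and 5.73 CPM (lowest, median, highest) against 43.9, 101 and 429 CPM (-5.16 ± 0.43), and Laptm5 at 0.0493, 0.183 and 0.393 CPM against 17.2, 43.2 and 154 CPM (-8.19 ± 0.56). Cd8a (-7.51 ± 0.66) and the immunoglobulin genes Ighm (-8.00 ± 0.72) and Jchain (-6.58 ± 0.66) were lower as well. Cd4 had no count in any GFP-intermediate library and a mean of 2.21 CPM in the GFP-negative ones, at least 61.6-fold lower against a floor of 3 counts per library, a bound for counting error only.

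The summed level of the 25 pan-leukocyte genes was 35.4 to 62.6 CPM in GFP-intermediate and 259 to 1840 CPM in GFP-negative libraries. The cells were labelled epithelial, and the libraries of the 2 fractions did not overlap. Of 25 stromal, endothelial, glial and muscle genes 8 were called lower and 0 higher, and their sum was 25.2 to 36.5 CPM against 52.3 to 165 CPM. The count of 8 was 5 without proximal GFP-negative replicate 3. Vim differed by -2.94 ± 0.30 and Pecam1 by -3.27 ± 0.43, both genes that leukocytes express too. Genes in other lists that leukocytes express fell with these sums. In the oxidase list these were Cybb, Ncf1 and Ncf4 of the phagocyte oxidase, with GFP-intermediate medians of 0.0399, 0.0826 and 0.0449 CPM; in the Notch list Dtx1 (-7.00 ± 0.63) and Mfng (-3.07 ± 0.42); and among transcription factors Satb1 (-7.89 ± 0.83). The part of leukocyte RNA in each of these differences was not tested.

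**Figure D5:**
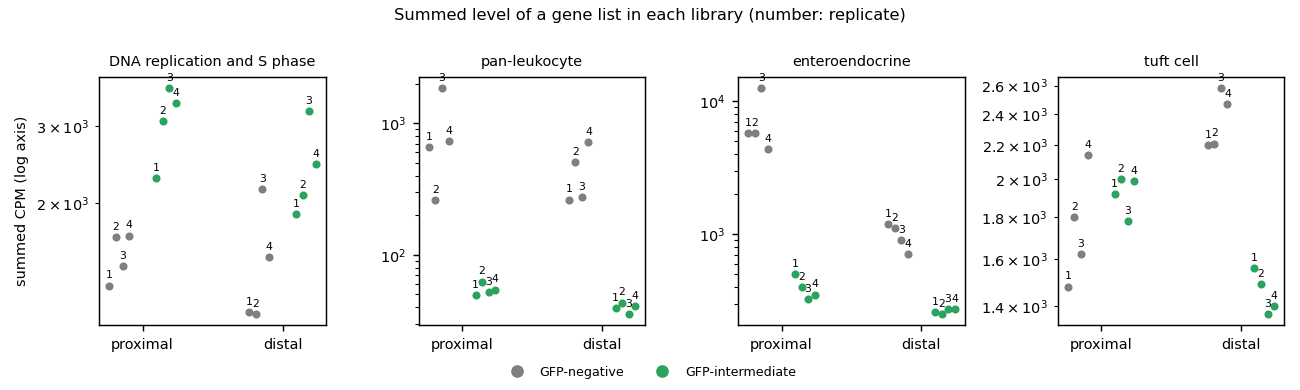
Summed CPM of 4 gene lists in each GFP-negative and GFP-intermediate library on a log axis, with the replicate number beside each point. The pan-leukocyte and enteroendocrine sums separate the fractions in both parts, proximal GFP-negative replicate 3 is the highest for both (1840 and 12500 CPM), and the tuft cell sum separates them in the distal part, at 1370 to 1560 CPM against 2200 to 2580 CPM.

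Of 20 oxidase and peroxide genes 4 were called higher (20%, against 10.8% of all genes) and 3 lower (15%, against 12.2%). Nox1, the NADPH oxidase of colon epithelium, stood at 65.9, 112, 115 and 126 CPM against 24.9, 37.1, 18.9 and 31.8 CPM in the proximal and at 173, 203, 219 and 195 CPM against 59.3, 66.9, 49.0 and 62.3 CPM in the distal colon. The fractions did not overlap within a part, and the distal levels were the higher ones in both fractions. The difference was 1.81 ± 0.37 (adjusted p = 0.000146). The distal difference alone, 1.73, was not called without any 1 of distal GFP-intermediate replicate 3 and distal GFP-negative replicates 1, 3 and 4 (1.65 to 1.76). Without the 3 GFP-negative libraries that stand apart the proximal difference was 1.76 (adjusted p = 0.111) and the distal one 1.76 (adjusted p = 0.0524). Noxa1, the activator that Nox1 needs, rose by 1.06 ± 0.17 and the peroxidase gene Gpx2 by 0.76 ± 0.16, while the organizer gene Noxo1 differed by 0.32 and was not called.

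In the Notch list 7 of 25 genes were called higher (28% against 10.8% of all genes) and 5 lower (20% against 12.2%), with a median of 0.06. The receptor gene Notch1 ran from 88.4 to 153 CPM against 36.9 to 63.6 CPM (1.16 ± 0.14), its target Hes1 from 95.6 to 121 CPM against 57.9 to 86.2 CPM (0.68 ± 0.12), and Dtx4 rose by 0.97 ± 0.09. The ligand genes Dll1, Dll4 and Jag1 differed by -0.14, -0.02 and -0.11 and were not called. In the BMP list 5 of 24 were called higher (20.8%, against 10.8% of all genes) and 4 lower (16.7%, against 12.2%), with a median of -0.14. The ligand gene Bmp2, which differentiated cells express, had 6.07, 12.5 and 22.9 CPM (lowest, median, highest) against 18.6, 29.7 and 39.1 CPM (-1.32 ± 0.21), and the BMP target genes Id2 and Id3 differed by -0.50 ± 0.17 and -0.59 ± 0.18. Both calls were lost without proximal GFP-negative replicate 3 (-0.33 and -0.48). That of Id2 was also lost without any 1 of proximal GFP-intermediate replicates 3 and 4, distal GFP-intermediate replicates 1, 3 and 4 and distal GFP-negative replicate 4 (-0.47 to -0.45). The 4 lower calls became 2 without any 1 of proximal GFP-intermediate replicates 3 and 4, proximal GFP-negative replicate 3 and distal GFP-intermediate replicates 1 and 4.

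Of 32 intestinal transcription factor genes 6 were called higher (18.8%, against 10.8% of all genes) and 7 lower (21.9%, against 12.2%). Vdr (0.60 ± 0.10), Gata6 (0.44 ± 0.09) and Ets2 (0.45 ± 0.09) rose, and Cdx2 and Hnf4a, which set intestinal and enterocyte identity, differed by 0.25 ± 0.20 and 0.06 ± 0.08 and were not called. In the Hox list 0 of 30 genes were called in either direction by edgeR. Unadjusted p-values under 0.05 numbered 0 in each direction, and DESeq2 called 0, with 1 higher and 0 lower at an unadjusted p under 0.05. Of 19 reserve and regenerative genes 5 were called higher (26.3%, against 10.8% of all genes) and 2 lower (10.5%, against 12.2%). Mex3a rose by 1.67 ± 0.14, with 16.7 to 22.4 CPM in GFP-intermediate and 3.40 to 8.39 CPM in GFP-negative libraries. The telomerase gene Tert rose by 0.98 ± 0.14. The 2 lower calls became 1 in 12 of the 16 fits without 1 library, the exceptions being replicates 1 and 4 of the GFP-negative libraries of each part.

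Of 30 fatty acid oxidation and ketogenesis genes 1, Acss2 (0.35 ± 0.09), was called higher and 0 lower. Its share of 3.33% was below the 10.8% of all genes called higher. In the glycolysis list 1 of 24 was called higher (4.17%, against 10.8% of all genes) and 5 lower (20.8%, against 12.2%). Among the lower were the phosphofructokinase gene Pfkp (-0.54 ± 0.12) and the glucose transporter gene Slc2a1 (-0.34 ± 0.08). The 5 lower calls became 3 without any 1 of proximal GFP-intermediate replicate 2, proximal GFP-negative replicate 2 and distal GFP-intermediate replicate 3. In the cholesterol synthesis list 10 of 24 were called lower (41.7%, against 12.2% of all genes) and 0 higher (median -0.25). The lower count was 6 without any 1 of proximal GFP-negative replicate 2, distal GFP-intermediate replicate 3 and distal GFP-negative replicate 1. Hmgcs1 differed by -0.64 ± 0.13 and Msmo1 by -0.68 ± 0.14. Of 17 claudin genes of tight junctions 1 was called higher (5.88%, against 10.8% of all genes) and 2 lower (11.8%, against 12.2%). The higher one was the pore-forming Cldn2 of crypt cells (0.68 ± 0.11). Of the lower ones Cldn4 had 13.1 to 40.1 CPM against 12.7 to 160 CPM (-1.28 ± 0.26). Of 29 dissociation and immediate early genes 0 were called higher and 4 lower (13.8%, against 12.2% of all genes), with a median of -0.07. Without distal GFP-negative replicate 3 2 genes of the latter list were called higher, and without proximal GFP-negative replicate 2 also 2 fatty acid oxidation genes. Claudins called higher were 2 without any 1 of proximal GFP-negative replicates 1 and 2 and distal GFP-negative replicate 3, and glycolysis genes called higher were 0 without proximal or distal GFP-negative replicate 3.

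Of 18 genes of Paneth cells, a cell type of the small intestine, 3 were called lower (16.7%, against 12.2% of all genes) and 0 higher. The macrophage-expressed Lyz2 was among the 3, and 5 were called lower without distal GFP-intermediate replicate 1. The listed genes were not absent from the colon. Their sum was 2690 to 8410 CPM in distal GFP-intermediate and 6520 to 13100 CPM in distal GFP-negative libraries. In each proximal library it was at most 852 CPM. Which cells expressed these genes was not tested. Of 7 erythroid and platelet genes 3 were called lower and 0 higher, at summed levels of 1.14 to 2.27 CPM against 1.62 to 10.5 CPM. Of 4 tested neuropeptide Y family genes 2 were called lower, Pyy and Ppy, both hormones of endocrine cells. That count was 1 without any 1 of proximal GFP-intermediate replicate 3 and distal GFP-intermediate replicates 2 and 3.

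The same contrast was also made in the small intestine libraries of the series, where 13986 genes (59.9%) were called in either direction. The difference between organs was called for 6890 genes (29.5%). Of the crypt base stem cell genes 26 of 32 had a smaller difference in the colon and 0 a larger one (16.2% and 13.3% of all genes), with a median of -1.41. Lgr5 differed by 3.43 in the colon and by 5.17 ± 0.18 in the small intestine (difference between organs -1.75 ± 0.25, adjusted p = 1.27e-07), and Sox9 by 0.65 and 2.61 ± 0.13. Smoc2, by contrast, differed by 2.72 and 2.86 ± 0.08, and its difference between organs was not called (-0.14 ± 0.12, adjusted p = 0.471). For 31 of 40 surface colonocyte genes the difference was less negative in the colon (median 1.55).

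Averaged over both colon parts, tuft cell genes had another direction in the small intestine. There 30 of 38 were called higher in GFP-intermediate cells (29.3% of all genes were), with Dclk1 at 2.59 ± 0.17 and Trpm5 at 2.68 ± 0.16, and 34 of 38 differences between organs were called. The proximal colon alone had a tuft cell median of 0.30, the same sign as in the small intestine (2.47). Slc14a1 rose by 2.87 ± 0.30 in the small intestine and fell in the colon. Npy1r fell by 5.31 on the log2 scale in the small intestine (difference between organs 4.94 ± 0.80, adjusted p = 2.8e-06). Lrrk2, a kinase gene, and Cmah, a sialic acid hydroxylase gene, fell by 5.86 and 5.69 on the log2 scale there and differed by -0.09 ± 0.37 and -0.60 ± 0.37 in the colon. Defensin genes of Paneth cells, near-identical copies that can share reads, are left out as uncertain.

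The next step of the GFP order, colon GFP-high against GFP-intermediate, uses the same GFP-intermediate libraries, so its values are only set beside those above. Lgr5 and Smoc2 were higher again, by 1.28 and 0.79, and Cps1 by 1.27 after 1.97 ± 0.16. Of the 41 S phase genes 2 were called higher and 1 lower (4.83% and 7.20% of all genes were), after 39 in the first step, whereas 22 of 38 mitosis genes were called higher at this step after 37. Axin2 differed by 0.11, Ephb3 by 0.01 and Rnf43 by 0.05 and were not called. Surface colonocyte genes had the reverse order, with 21 of 40 called lower from GFP-intermediate to GFP-high after 7, while 0 of 39 enteroendocrine and 0 of 38 tuft cell genes were called lower there.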

How the data were processed

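PolyA RNA of GFP-sorted gut epithelium was sequenced in 60 libraries, 5 parts by 3 GFP fractions by 4 replicates, and 16 of them form the comparison. The authors deposited whole-number counts per gene and library for 55357 genes in a long table, per the file headers. STAR, Subread featureCounts and edgeR with build mm10 are named, without versions, per the submitters' processing notes. The strand setting, library kit and annotation release are not given in the sources used here, so overlapping and antisense genes, and near-identical copies, cannot be told apart from the counts. The derived columns on log scales were not used.

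Here edgeR 4.0.16 in R 4.3.3 was run on the counts of all 60 libraries in 15 groups, so that every group shares 1 estimate of the spread. TMM scaling and filterByExpr (minimum count 10) left 23360 genes, with 99.97% to 99.99% of the counts of each library. The quasi-likelihood test (glmQLFit, glmQLFTest) had 45 residual degrees of freedom, with Benjamini-Hochberg adjustment of the p-values across the genes kept. Each SE was derived from the log2 difference and its F statistic. Genes were named by rule: up to 15 called protein-coding genes per direction with the largest differences, reaching 10 CPM in the higher fraction without overlap between the 8 and 8 libraries; Lgr5, Nox1 and Npy1r; up to 5 called members of each list by p, with any member given as not called; and up to 6 genes per direction for the differences between parts and between organs. Members and the 33 lists were chosen with earlier results of these data known, and some genes outside the rule were named after their values were seen, and a few genes that the rule names are not reported here. The script was tested on simulated counts. Promoter sequences come from RefSeq on GRCm38.p6, matched by symbol for 14208 tested genes. The motif letters of TCF/LEF, E2F and CHR do not contain one another.

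Alternatives were DESeq2 1.42.0 (size factors, Wald test), no filter, the newer quasi-likelihood method, only the compared groups, a 2-fold minimum, a replicate block and libraries left out. A deposited batch number equals the replicate number in 60 of 60 libraries. Deviations from the group means were correlated over 8000 genes between same-numbered GFP-intermediate and GFP-negative libraries. The 4 pairs had 0.145 to 0.363 in the proximal and 0.123 to 0.716 in the distal colon. Pairs of unlike number had means of -0.084 and -0.114. The best match had the same number for 3 of 4 libraries in each part. Between the parts, same-numbered GFP-intermediate libraries had a mean of 0.484 (-0.158 for unlike numbers) and same-numbered GFP-negative ones 0.524 (-0.114). There the best match had the same number for 4 and 2 of 4 libraries. The 8 libraries of a fraction are therefore not fully independent. Proximal GFP-negative and distal GFP-intermediate replicate 1 had -0.103, so the numbers pair the libraries in part only. The main fit left this pairing out, and the replicate block included it.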

Additional observations from a re-analysis of the deposited data

Results flagged for a closer look

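Of 104 groups of 4 libraries examined, 7 had 1 library far from the other 3 by Dixon's ratio at its 95% critical value, and chance gives about 1 in 20. Smoc2 stood at 27.4 CPM in distal GFP-negative replicate 1, Axin2 at 151 CPM in distal GFP-intermediate replicate 2 and Ptprc at 4.94 CPM in proximal GFP-intermediate replicate 4. Proximal GFP-intermediate replicate 1 was apart for Tph1 (24.6 CPM) and Dclk1 (60.7 CPM). Proximal GFP-negative replicate 3 was apart for Npy1r (20.0 CPM) and the endocrine gene Cpe (130 CPM).

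The difference between the colon parts was itself called, by edgeR's quasi-likelihood test, for 15 genes named above. It was positive, with the distal value higher, for Npy1r (3.23), Trf (3.46), Ambp (3.98), Slc15a1 (4.20), Man1c1 (4.72), Slfn2 (3.48), Slc18a1 (2.66) and Tac1 (2.97). It was negative for Cps1 (-1.45) and for the tuft cell genes Sh2d7 (-2.94), Matk (-2.84), Alox5 (-2.76), Spib (-2.62), Dclk1 (-2.61) and Trpm5 (-2.60).

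The difference between colon and small intestine was called for Npy1r (4.94), Lrrk2 (5.78) and Cmah (5.09), with the colon value higher, and for Lgr5 (-1.75), Slc14a1 (-9.06), Dclk1 (-3.86) and Trpm5 (-3.56), with the colon value lower.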

How the results depend on the processing

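Of 1836 values of single genes under alternatives other than leaving out 1 library, 1783 kept their direction and side of the threshold, 37 were lost, 15 were gained and 1 reversed. The reversed value was the proximal Trf difference, 0.084 without the 3 GFP-negative libraries that stand apart. Among the lost calls, by edgeR's quasi-likelihood test, were Acot1 without those 3 libraries (adjusted p = 0.0556) and Klf4 without the libraries numbered 1 (adjusted p = 0.0695). With a 2-fold minimum the counts were 584 higher and 1810 lower in the colon, 503 higher in the proximal and 274 in the distal colon, and 1490 and 1331 between organs. Proximal counts were 1053 higher with only the compared groups, and 938 higher and 1049 lower without those 3 libraries. The parts differed for 74 genes in each direction by DESeq2's Wald test, and the count with a higher distal value was 51 by the newer quasi-likelihood method, 17 without the libraries numbered 1 and 9 without the 3 libraries. Without those 3 libraries the list counts became 3 for Wnt receptors, 5 for Eph genes, 3 for BMP genes higher, 4 for stromal, 0 for erythroid, 1 for neuropeptide Y family, 1 for claudin and 9 for glycolysis genes lower. Without both libraries numbered 4 they were 4 for Notch, 4 for surface colonocyte and 10 for glycolysis genes. By DESeq2's size factors and Wald test surface colonocyte genes lower numbered 12 and 12, glycolysis genes 8 and 9, and by the first DNA methylation genes 4, by the second Paneth cell genes 5 and neuropeptide Y family genes 1. With only the compared groups surface colonocyte genes numbered 17. Without the libraries numbered 1 there were 1 neuropeptide Y family, 2 fatty acid oxidation and 3 glycolysis genes. The cause of these shifts was not tested. Leaving out 1 library gave 511 to 1043 distal higher genes, 11 to 50 with a higher distal difference, and list counts of 5 to 8 (Eph), 3 to 9 (surface colonocyte), 2 to 5 (Paneth), 5 to 8 (stromal), 1 to 2 (neuropeptide Y family and fatty acid oxidation), 6 to 12 (cholesterol), 3 to 7 (glycolysis) and 4 to 7 (DNA methylation). The replicate block, which pairs libraries of 1 number, called the Smoc2 difference between parts (-0.78, adjusted p = 0.049), 1 dissociation gene higher, 2 fatty acid oxidation genes and 1 DNA methylation gene lower, and 19 tuft cell genes with a lower distal difference in place of 17. No other single gene that was refitted changed its call under the block. The Smoc2 difference between parts, not called in the main fit, was also called by DESeq2's Wald test (adjusted p = 0.0197) and the newer quasi-likelihood method (adjusted p = 0.0404). It was called as well without the libraries numbered 1, and without any 1 of proximal GFP-negative replicate 1, distal GFP-intermediate replicate 3 and distal GFP-negative replicate 1. Genes without a count in any library of a fraction have a difference only as a bound at 3 counts per library.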

Other observations

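The gene classes given in the deposited table did not move alike. T cell receptor and immunoglobulin gene segments, which lymphocytes rearrange, were lower in GFP-intermediate cells: 49 of 56 variable segments of the T cell receptor (87.5%, median -6.17), 19 of 20 of its joining segments, 10 of 11 immunoglobulin constant genes (median -8.97) and 61 of 158 immunoglobulin variable segments (38.6%, median -4.04) were called lower by edgeR. Single segments share sequence, so that reads may be split between them. Of 1903 processed pseudogenes, 115 were called higher (6.04%) and 28 lower (1.47%). Of 143 small nucleolar RNA genes, which guide modification of ribosomal RNA, 8 were called higher and 1 lower, and of 3189 long non-coding RNA genes 162 were called higher and 189 lower. Over all genes 10.8% were called higher and 12.2% lower. Small nucleolar RNA genes lie mostly within introns of other genes, and polyA libraries hold them only in part.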
